A study of Mus musculus with 16 samples.

Results

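Cells of the intervertebral disc hold on to their matrix through integrins, syndecans and discoidin domain receptors, and the mRNA of these receptors was followed in 2 disc tissues of control mice and of mice that had lost Sox9. A list of 32 gene symbols was used, made up of the integrin alpha and beta subunits, the integrin-related Itgbl1, the 4 syndecans and the collagen receptors Ddr1 and Ddr2. Of these 32 genes, 30 were matched to a probe set, among 19505 genes named in the table. Itga1 and Itga10 had no match and were not analysed here. Each of the 30 genes had 1 probe set, so no choice between probe sets was needed. The 22 matrix receptors and Itgbl1 are described first, and the 7 subunits that mark leukocytes and platelets (Itgal, Itgam, Itgax, Itgb2, Itgae, Itgb7 and Itga2b) are described apart.

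The tissues were the nucleus pulposus (NP), the gel-like core of the disc, and the annulus fibrosus (AF), the fibrous ring around it. The arrays fall into 4 groups of 4, NP cKO, NP CTR, AF cKO and AF CTR, from 8 female mice of 3 to 4 months. The cKO mice carry AcanCreERT2, a Cre that tamoxifen activates in cells that use the aggrecan gene, together with Sox9fl/fl, and they were injected with tamoxifen on 2 days in a row. The CTR mice carry Sox9fl/fl with no Cre named, and every disc was collected 5 days after injections began. Whether CTR mice were injected is not stated, so drug and genotype cannot be told apart. For each mouse, the NP of its lumbar and tail discs was combined into 1 sample and the AF into another, which gave 1 array per tissue and mouse. Values are log2 signals, errors after a mean are SD with n = 4, and an SE belongs to a log2 difference of the limma fit over all 16 arrays.

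An integrin is a pair of 1 alpha and 1 beta subunit that spans the cell membrane, binds matrix outside and the actin skeleton inside, and signals in both directions. The alpha subunit largely sets what is bound: collagens, laminins, or proteins with an RGD sequence such as fibronectin, vitronectin and osteopontin. Syndecans are membrane proteoglycans whose heparan sulfate chains bind matrix and growth factors and assist integrins at adhesion sites, and Ddr1 and Ddr2 are receptor tyrosine kinases that are switched on by collagen. In the disc, NP cells descend from the notochord and lie in an aggrecan-rich gel, while AF cells lie among fibrillar collagen, and Sox9 drives the cartilage-type matrix genes of both tissues.

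Sox9, the deleted gene, had signals of 9.69, 9.55, 10.12 and 9.65 in NP cKO and of 16.19, 16.14, 16.79 and 15.95 in NP CTR. In the annulus it had 12.10, 11.43, 12.99 and 12.44 in AF cKO and 17.25, 17.45, 16.59 and 16.39 in AF CTR. All 4 arrays of each cKO group lay below all arrays of their CTR group, with a log2 change of -6.51 (SE 0.30) in NP and -4.68 (SE 0.30) in AF. It is not known if these probes fall in the exons that Cre removes. The tissue labels were set against marker genes: the nucleus keratin Krt19 averaged 18.09 in NP CTR and 15.92 in AF CTR, and the tendon and annulus gene Tnmd averaged 5.94 and 8.69. Of 10 notochord and nucleus markers, 5 were higher and 1 was lower in NP CTR than in AF CTR at an adjusted p under 0.05, and 9 of 11 annulus and tendon markers were lower and none was higher. Over all probe sets, 9.96% were higher and 10.1% lower. Osteoblast markers lay between 5.96 and 6.46 on average in every NP array and between 10.57 and 14.56 in the AF arrays, so the AF samples carried signal of bone genes. The notochord genes Noto, Foxa2 and Shh averaged 7.28, 5.51 and 7.33 in NP CTR and were higher in AF CTR, at 7.94, 6.41 and 7.58. All these means lay within the range of the negative control probe sets, so these defining markers did not set the nucleus apart.

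The arrays set a floor under which a receptor cannot be told from background. The 5222 negative control probe sets had a median between 6.14 and 6.59 on each array. The means of 6 receptors, Ddr2, Itgav, Itgb1, Itgb5, Sdc3 and Sdc4, lay above 95% of the negative controls in all 4 groups. Itga5, Itga6, Itgbl1, Sdc1 and Sdc2 did so in some groups, and the other 19 of 30 in none. A low value of these 19 therefore carries little information on level, and a difference between 2 low values is a difference in signal near background. Levels of different genes are not set against each other, since probes differ in their response.

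The control discs were compared first, to ask which receptors the core and the ring use. In NP CTR against AF CTR, 12 of the 30 genes passed an adjusted p under 0.05, which is 40% of them, beside 20.1% of all 22206 probe sets. Of the 12, 10 were lower in NP, beside 10.1% of all probe sets that were lower, and 2 were higher, beside 9.96% that were higher. The lower ones were the collagen-binding Itga11, the laminin-binding Itga3, the related subunits Itga4 and Itga9, Itgbl1, all 4 syndecans and the leukocyte subunit Itgb7, and the higher ones were Itgav and the leukocyte subunit Itgae. The median log2 difference was -0.52 over the 30 genes and 0.04 over all probe sets. When each array was centred on its median, the median of all probe sets moved by 0.13, and the split among the called genes was 5 higher and 6 lower in place of 2 and 10. With a second quantile normalization it was 3 higher and 8 lower. In a bulk tissue sample, fewer cells of a type and less RNA per cell cannot be told apart.

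**Figure D1:**
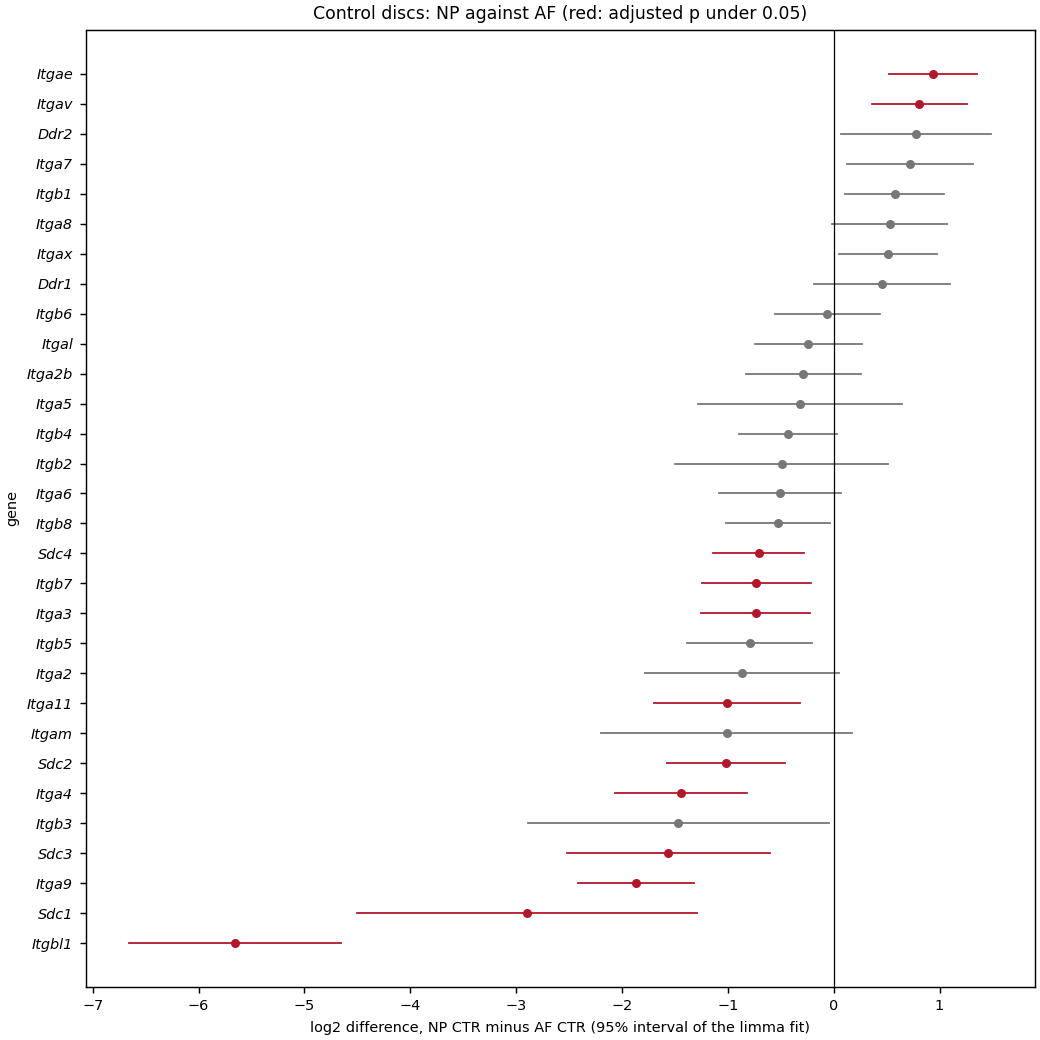
Log2 difference of NP CTR minus AF CTR for each of the 30 genes, ordered by size, with the 95% interval of the limma fit (n = 4 arrays per group). The 12 genes at an adjusted p under 0.05 are red, and Itgbl1 lies far to the left of all others at -5.66.

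Promoter sequences are shown for 4 genes that the results turn on: Itgbl1, the gene with the widest gap between the tissues, Itga11, whose arrays did not overlap in either genotype comparison, and Sdc1 and Sdc4 for the syndecans. Each window holds 250 bases before and 50 after the start of the gene, from the RefSeq table of GRCm38.p6, and is written in the direction of the gene. Capitals mark a match, on either strand, to a short Sox-type word (ACAAT), to ACAAAG, a word of Sox and TCF factors, to the GC-box core GGGCGG, or to GGAATG, the core of the TEAD word. No match overlaps another in these windows. The Itgbl1 window is chr14:123659890-123660189 (plus strand), that of Itga11 is chr9:62677605-62677904 (plus strand), that of Sdc1 is chr12:8771146-8771445 (plus strand) and that of Sdc4 is chr2:164443139-164443438 (minus strand).
Itgbl1: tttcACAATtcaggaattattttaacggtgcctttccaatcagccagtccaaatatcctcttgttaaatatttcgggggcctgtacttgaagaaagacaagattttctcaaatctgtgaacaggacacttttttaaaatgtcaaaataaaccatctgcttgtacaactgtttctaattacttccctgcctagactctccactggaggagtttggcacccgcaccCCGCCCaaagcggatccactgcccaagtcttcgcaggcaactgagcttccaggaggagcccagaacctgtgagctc
Itga11: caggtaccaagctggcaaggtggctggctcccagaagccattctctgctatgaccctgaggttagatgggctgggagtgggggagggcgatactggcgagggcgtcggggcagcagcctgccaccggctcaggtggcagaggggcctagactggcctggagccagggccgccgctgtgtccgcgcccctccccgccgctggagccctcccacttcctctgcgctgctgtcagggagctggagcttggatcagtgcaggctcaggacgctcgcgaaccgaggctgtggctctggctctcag
Sdc1: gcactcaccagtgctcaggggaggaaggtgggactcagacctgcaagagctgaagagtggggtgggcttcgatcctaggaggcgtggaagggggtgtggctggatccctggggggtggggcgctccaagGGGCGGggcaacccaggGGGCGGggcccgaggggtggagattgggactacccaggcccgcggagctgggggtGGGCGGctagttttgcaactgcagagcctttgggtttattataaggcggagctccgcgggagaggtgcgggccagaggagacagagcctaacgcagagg
Sdc4: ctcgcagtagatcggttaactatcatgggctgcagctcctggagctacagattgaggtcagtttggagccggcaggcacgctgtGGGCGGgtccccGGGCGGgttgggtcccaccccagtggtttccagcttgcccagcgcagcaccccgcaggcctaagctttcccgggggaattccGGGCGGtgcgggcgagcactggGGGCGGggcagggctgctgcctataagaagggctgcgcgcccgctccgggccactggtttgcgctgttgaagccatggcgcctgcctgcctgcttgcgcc
The Itgbl1 window has 45.3% GC, while those of Itga11, Sdc1 and Sdc4 have 68.0%, 66.3% and 67.7%. Sdc1 holds 3 and Sdc4 holds 4 copies of GGGCGG, Itgbl1 holds 1 on the other strand together with 1 ACAAT, and the Itga11 window holds none of the 4 words. The 24 listed genes with a promoter entry have 29 windows, of which 16 hold GGGCGG (in 13 genes), 7 ACAAT, 3 ACAAAG and 2 GGAATG. Among all 32851 windows of the table, 35.7% hold GGGCGG, 31.0% ACAAT, 18.7% ACAAAG and 14.7% GGAATG. A match describes the letters of the window, and the arrays did not measure binding there.

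Itgbl1 encodes a secreted protein built from the cysteine-rich repeats of integrin beta subunits, without their transmembrane part. Its signal was 6.81, 7.19, 7.17 and 6.75 in NP CTR and 11.16, 13.77, 13.69 and 11.93 in AF CTR. Every AF CTR array lay above every NP CTR array, and the mean in NP CTR was above only 60.9% of the negative controls. The log2 difference was -5.66 (SE 0.48, adjusted p = 1.88e-07), or 50.4-fold lower signal in NP. Since the NP signal lies inside the background, this value compares AF with a floor. Its promoter window was the poorest in GC of the 4 shown and the only one of them with ACAAT. AF CTR itself was spread, with replicates 2 and 3 high and replicates 1 and 4 lower.

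The alpha subunits 4 and 9 form a small branch of their own, which binds fibronectin splice segments, tenascin, osteopontin and Vcam1. Itga9 had 4.56, 5.23, 4.89 and 4.69 in NP CTR and 7.10, 6.98, 6.64 and 6.10 in AF CTR, without overlap, and was lower in NP by 1.87 (SE 0.26, adjusted p = 5.94e-05). Itga4 had 6.07, 6.35, 6.01 and 5.55 in NP CTR and 7.75, 7.18, 6.96 and 7.86 in AF CTR, again without overlap, and was lower in NP by 1.44 (SE 0.30, adjusted p = 0.00192). Both stayed below the 95% line of the negative controls in each group, and in NP both sat under the median of the negative controls. Itga4 is also carried by many leukocytes and Itga9 by neutrophils and muscle. Macrophage marker genes averaged 6.03, 6.15, 5.82 and 5.92 in NP CTR and 7.97, 6.54, 6.28 and 6.38 in AF CTR. Neutrophil markers overlapped, at 6.68, 7.39, 6.04 and 6.79 in NP CTR and 10.41, 7.35, 6.24 and 6.85 in AF CTR. Lymphocyte markers averaged 5.75, 5.74, 5.54 and 5.90 in NP CTR and 5.48, 5.47, 5.46 and 5.75 in AF CTR. For skeletal muscle markers the means were 5.64, 5.70, 5.80 and 5.48 in NP CTR and 6.34, 6.58, 7.11 and 6.33 in AF CTR. The part of such cells in the differences was not tested.

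All 4 syndecans were lower in the core than in the ring. Sdc1, best known from epithelia and plasma cells, had 8.84, 9.13, 8.78 and 8.65 in NP CTR and 11.71, 12.46, 12.07 and 10.74 in AF CTR. No NP CTR array reached the lowest AF CTR array, and the log2 difference was -2.90 (SE 0.77, adjusted p = 0.0115), or 7.46-fold. The NP CTR mean was above 89.2% of the negative controls, under the 95% line, so this fold too is set against a signal near background. Sdc2, the syndecan of mesenchymal cells, had 8.52, 8.86, 8.83 and 8.62 in NP CTR and 9.73, 10.39, 9.505 and 9.28 in AF CTR, also without overlap, with a log2 difference of -1.02 (SE 0.26, adjusted p = 0.0105). Endothelial markers averaged 5.46, 5.53, 5.61 and 5.47 in NP CTR and 8.26, 7.21, 7.23 and 6.80 in AF CTR, and their part in the syndecan differences was not tested.

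Sdc3, which is abundant in nerve and in limb cartilage, had 11.52, 11.58, 12.14 and 11.94 in NP CTR and 14.70, 14.14, 12.20 and 12.39 in AF CTR. The groups did not overlap, but AF CTR replicates 1 and 2 stood far above replicates 3 and 4, and the log2 difference of -1.56 (SE 0.46, adjusted p = 0.0205) became -0.50 without these 2 arrays. The same 2 arrays had the highest osteoblast marker means among AF CTR, at 13.20 and 12.58 beside 10.57 and 11.27 in replicates 3 and 4. The match was not particular to bone. In AF CTR, cartilage markers averaged 14.67, 13.62, 12.02 and 12.75, and nerve and Schwann cell markers 9.27, 8.27, 8.13 and 7.85. Osteoclast, macrophage, neutrophil and smooth muscle marker means were also highest in these 2 arrays, and those of the other marker lists were not. The part of any of these cells in the difference was not tested. Sdc4, the syndecan of focal adhesions, had 15.09, 14.99, 15.42 and 14.79 in NP CTR and 15.68, 16.27, 15.39 and 15.79 in AF CTR. Here the highest NP CTR array just exceeded the lowest AF CTR array, and the log2 difference was -0.71 (SE 0.20, adjusted p = 0.0192). With the animal as a fixed block within the control arrays, the differences of Sdc3 and Sdc4 did not pass, at adjusted p = 0.0503 and 0.103. With the animal as a random block over all 16 arrays, Sdc3 kept its call. Sdc3 lost its call without any 1 of replicates 1 and 2 of NP CTR or of AF CTR, with adjusted p up to 0.0796. Sdc4 lost its call without NP CTR replicate 4 or AF CTR replicate 2, with adjusted p up to 0.0711, and with median centring (adjusted p = 0.0585). Leaving out AF CTR replicates 1 and 2 also took the calls of Sdc1 (adjusted p = 0.0974) and Sdc2 (adjusted p = 0.144).

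Among the collagen receptors, Itga11, the alpha subunit that pairs with beta 1 to bind fibrillar collagen in fibroblasts, had 5.98, 6.14, 5.71 and 5.87 in NP CTR and 7.06, 7.15, 6.34 and 7.19 in AF CTR. No NP CTR array reached AF CTR, though AF CTR replicate 3 came close to them. The log2 difference was -1.01 (SE 0.33, adjusted p = 0.0375), and it lost its call when any 1 of the 8 control arrays other than AF CTR replicate 3 was left out, with adjusted p up to 0.0872. Nor did it pass with median centring (adjusted p = 0.0689), a second quantile normalization (adjusted p = 0.0559), array weights (adjusted p = 0.0607) or without AF CTR replicates 1 and 2 (adjusted p = 0.212). Itga2, which binds collagen on epithelia and platelets, averaged 6.00 ± 0.64 in NP CTR and 6.86 ± 0.79 in AF CTR (adjusted p = 0.178). Ddr2, the discoidin receptor of mesenchymal cells, averaged 15.66 ± 0.61 in NP CTR and 14.89 ± 0.62 in AF CTR, and Ddr1, its epithelial relative, averaged 8.64 ± 0.44 and 8.18 ± 0.41. Neither passed, with adjusted p = 0.117 for Ddr2 and 0.322 for Ddr1.

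Of the 4 laminin-binding subunits, 1 passed between the control tissues, Itga3. Itga3 had 6.60, 6.76, 6.80 and 6.12 in NP CTR and 7.61, 7.34, 7.41 and 6.87 in AF CTR, with all NP CTR arrays below all AF CTR arrays. Its log2 difference was -0.74 (SE 0.24, adjusted p = 0.0396). It did not pass with the animal as a fixed block (adjusted p = 0.0513), but kept its call with the animal as a random block. Nor did it pass without any 1 of NP CTR replicates 1 and 4 and AF CTR replicates 1, 2 and 3, where adjusted p reached 0.132. It did not pass with median centring (adjusted p = 0.0779) or a second quantile normalization (adjusted p = 0.0858) either. Itga6 averaged 9.95 ± 0.35 in NP CTR and 10.46 ± 0.46 in AF CTR, and its hemidesmosome partner Itgb4 averaged 5.69 ± 0.16 and 6.12 ± 0.52. The muscle laminin receptor subunit Itga7 averaged 8.26 ± 0.28 in NP CTR and 7.54 ± 0.16 in AF CTR, with no overlap between the groups and an adjusted p of 0.0830, which became 0.0466 with median centring and 0.0306 with a second quantile normalization.

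Itgav, the alpha subunit of the vitronectin receptors that also release latent TGF-beta, was the 1 matrix receptor called higher in the core. It had 14.10, 14.09, 14.32 and 14.22 in NP CTR and 13.54, 13.27, 13.54 and 13.14 in AF CTR. All NP CTR arrays lay above all AF CTR arrays, with a log2 difference of 0.81 (SE 0.21, adjusted p = 0.0116), or 1.75-fold. Without AF CTR replicates 1 and 2 the adjusted p was 0.0541. The fibronectin receptor subunit Itga5 averaged 9.16 ± 0.50 in NP CTR and 9.48 ± 0.56 in AF CTR (adjusted p = 0.674), and Itga8, another RGD-binding subunit, averaged 6.35 ± 0.19 and 5.82 ± 0.27 (adjusted p = 0.162).

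None of the 5 beta subunits that pair with these alpha subunits, Itgb1, Itgb3, Itgb5, Itgb6 and Itgb8, passed the adjusted test between the control tissues, and 4 of the 5 had an unadjusted p under 0.05, as did 32.8% of all probe sets. Itgb1, the common partner of the collagen, laminin and fibronectin receptors, averaged 15.81 ± 0.23 in NP CTR and 15.23 ± 0.43 in AF CTR (adjusted p = 0.0763). Itgb5, a partner of Itgav, averaged 10.92 ± 0.36 in NP CTR and 11.71 ± 0.28 in AF CTR, with no overlap and adjusted p = 0.0527. Under other scalings these near misses moved across the line: Itgb1 was called higher in NP with median centring (0.70, adjusted p = 0.0315), and Itgb5 was called lower with a second quantile normalization (-0.90, adjusted p = 0.0116).

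The beta 3 subunit, shared by vitronectin receptors of osteoclasts and the platelet fibrinogen receptor, averaged 6.47 ± 0.42 in NP CTR and 7.94 ± 1.14 in AF CTR (adjusted p = 0.139). Itgb8, which with Itgav binds latent TGF-beta, averaged 5.79 ± 0.10 in NP CTR and 6.31 ± 0.33 in AF CTR (adjusted p = 0.127). Itgb6, an epithelial beta subunit, averaged 6.91 ± 0.54 in NP CTR and 6.97 ± 0.25 in AF CTR (adjusted p = 0.889).

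**Figure D2:**
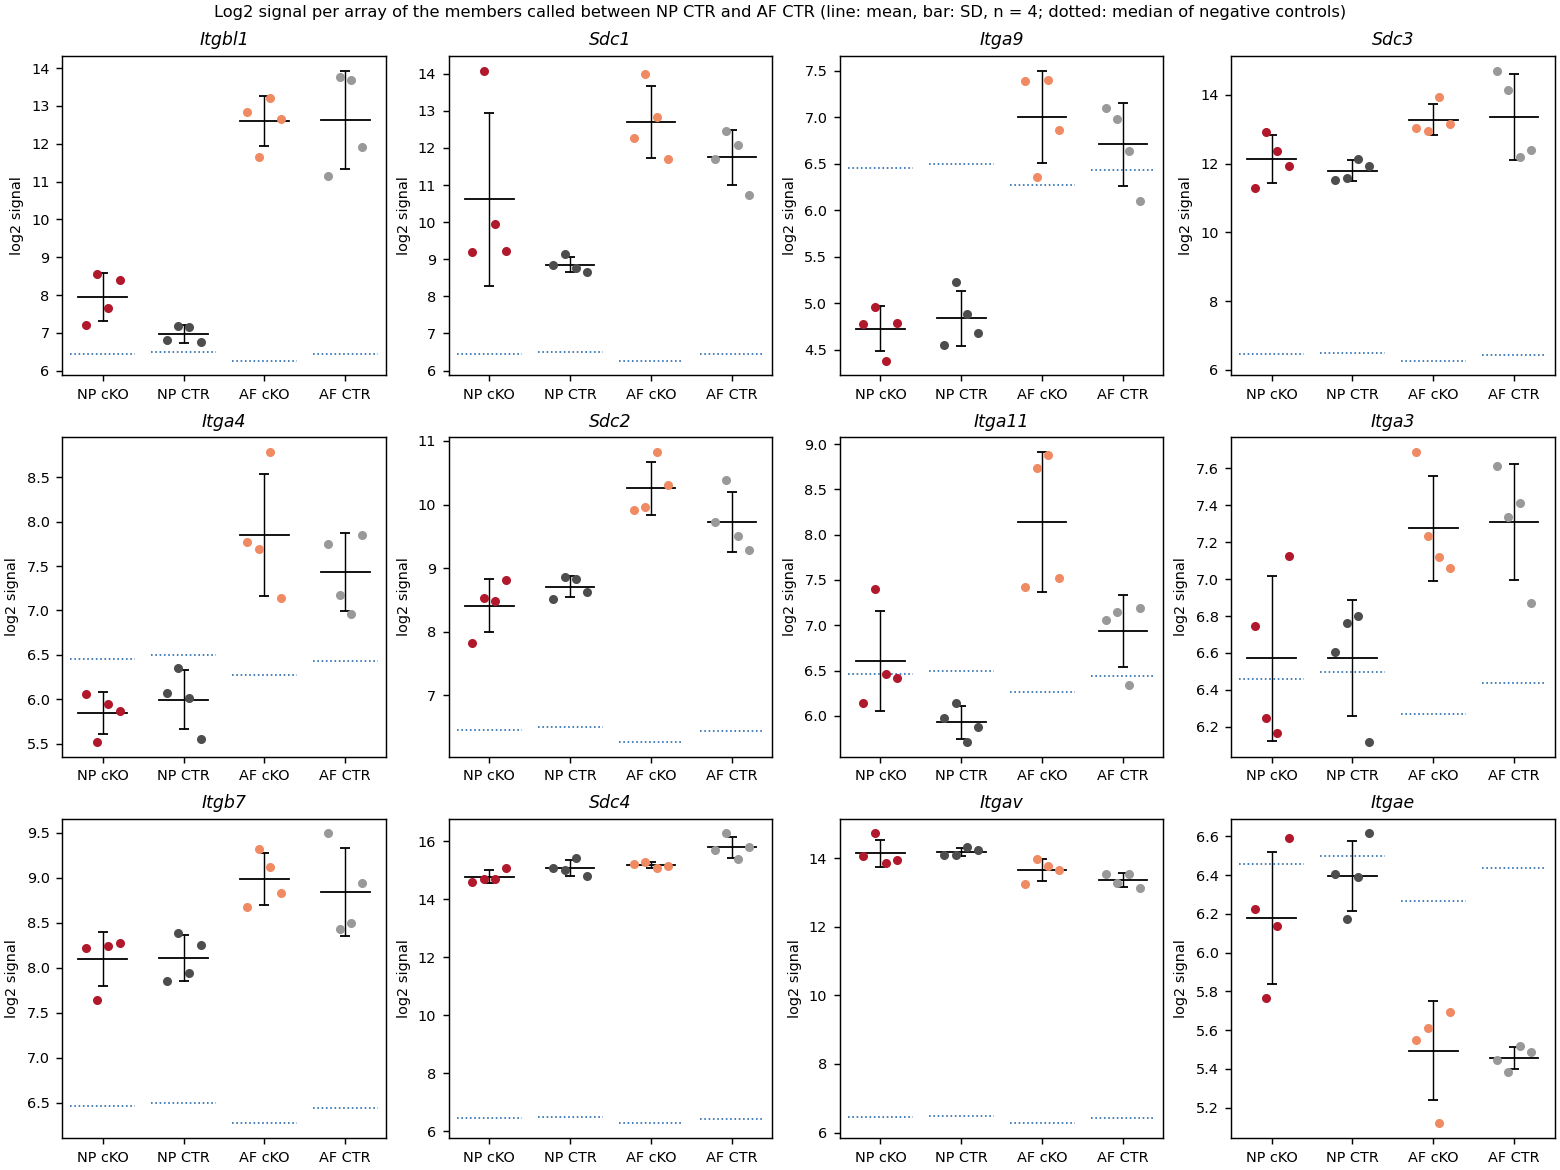
Log2 signal of the 12 genes called between the control tissues, 1 point per array, in NP cKO, NP CTR, AF cKO and AF CTR, with the group mean as a line, the SD as a bar (n = 4) and the median of the negative controls dotted. Itgbl1 lies between 6.75 and 7.19 in NP CTR and between 11.16 and 13.77 in AF CTR.

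The deletion of Sox9 was then compared within the core. In NP cKO against NP CTR, none of the 30 genes passed an adjusted p under 0.05 in limma, beside 0.122% of all probe sets, and 1 of 30 (Sdc1) had an unadjusted p under 0.05, beside 4.58%. Changes were positive for 15 genes and negative for 15, beside 50% positive over all probe sets, and their median was -0.01. In 3 genes, Sdc1, Itga11 and Itgbl1, all cKO arrays lay above all CTR arrays, beside 1.11% of all probe sets, and in 0 of 30 did all cKO arrays lie below, beside 1.82%. The adjusted p was 1 for every gene of the list in this comparison.

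Sdc1 had 9.18, 14.08, 9.94 and 9.24 in NP cKO and 8.84, 9.13, 8.78 and 8.65 in NP CTR. NP cKO replicate 2 stood far above the other 3 cKO arrays, which lay just above the controls. The log2 change was 1.76 (SE 0.77, unadjusted p = 0.0330), and 0.61 without that array. Itga5 had 9.52, 11.95, 9.33 and 9.62 in NP cKO and 9.41, 8.46, 9.59 and 9.19 in NP CTR, where again replicate 2 alone was high and the rest overlapped. Its change was 0.94 (SE 0.46) with all arrays and 0.33 without NP cKO replicate 2. That array had the highest NP cKO value in 15 of the 30 genes, beside 25.8% of all probe sets.

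Itga11 had 6.15, 7.40, 6.46 and 6.41 in NP cKO and 5.98, 6.14, 5.71 and 5.87 in NP CTR. The lowest cKO array lay just above the highest control, and replicate 2 was clearly higher, and the change was 0.68 (SE 0.33, unadjusted p = 0.0541) and 0.41 without that array. Itgbl1 had 7.22, 8.56, 7.66 and 8.40 in NP cKO and 6.81, 7.19, 7.17 and 6.75 in NP CTR, with replicates 2 and 4 highest and replicate 1 next to the controls. Its change was 0.98 (SE 0.48, unadjusted p = 0.0559). Annulus and tendon markers averaged 8.42, 8.46, 9.34 and 10.42 in NP cKO and 8.24, 8.43, 9.09 and 8.28 in NP CTR, highest in cKO replicate 4. The listed markers were mixed: in NP cKO, Dcn had 7.39, 7.61, 14.12 and 18.97, while Scx had 5.85, 6.00, 5.87 and 5.56. Mkx, Tnmd and Thbs4 averaged 5.74, 5.75 and 7.60 in NP cKO and 5.91, 5.94 and 7.42 in NP CTR. The part of annulus and tendon cells in the values of Itga11 and Itgbl1 was not tested. Sdc4 had 14.58, 14.71, 14.70 and 15.08 in NP cKO and 15.09, 14.99, 15.42 and 14.79 in NP CTR, overlapping, with a change of -0.31 (SE 0.20).

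The 6 receptors measured above 95% of the negative controls, Itgb1, Itgav, Ddr2, Sdc3, Itgb5 and Sdc4, had no change in the core that passed. For Itgb1 the 95% interval of the NP change ran from -0.51 to 0.42, for Itgav from -0.49 to 0.41 and for Ddr2 from -0.99 to 0.43. Sdc3 averaged 12.13 ± 0.68 in NP cKO and 11.79 ± 0.30 in NP CTR, and Itgb5 averaged 11.27 ± 0.62 and 10.92 ± 0.36. For all 6 the NP groups overlapped. Ddr1, which lay below that line in each group, averaged 8.22 ± 0.70 in NP cKO and 8.64 ± 0.44 in NP CTR, with an interval of the change from -1.06 to 0.22.

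The remaining receptors had NP changes between -0.30 and 0.32, and their groups overlapped. In NP cKO the laminin-binding subunits averaged 6.57 ± 0.45 for Itga3, 9.72 ± 0.56 for Itga6, 8.23 ± 0.71 for Itga7 and 5.53 ± 0.15 for Itgb4. Itga2 averaged 6.07 ± 0.18, Itga8 6.65 ± 0.55, Itga4 5.85 ± 0.23 and Itga9 4.73 ± 0.24, and the beta subunits Itgb3, Itgb6 and Itgb8 averaged 6.71 ± 0.11, 7.23 ± 0.23 and 5.57 ± 0.25. Most of these signals lie near the negative controls, which limits what a change in them can show.

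**Figure D3:**
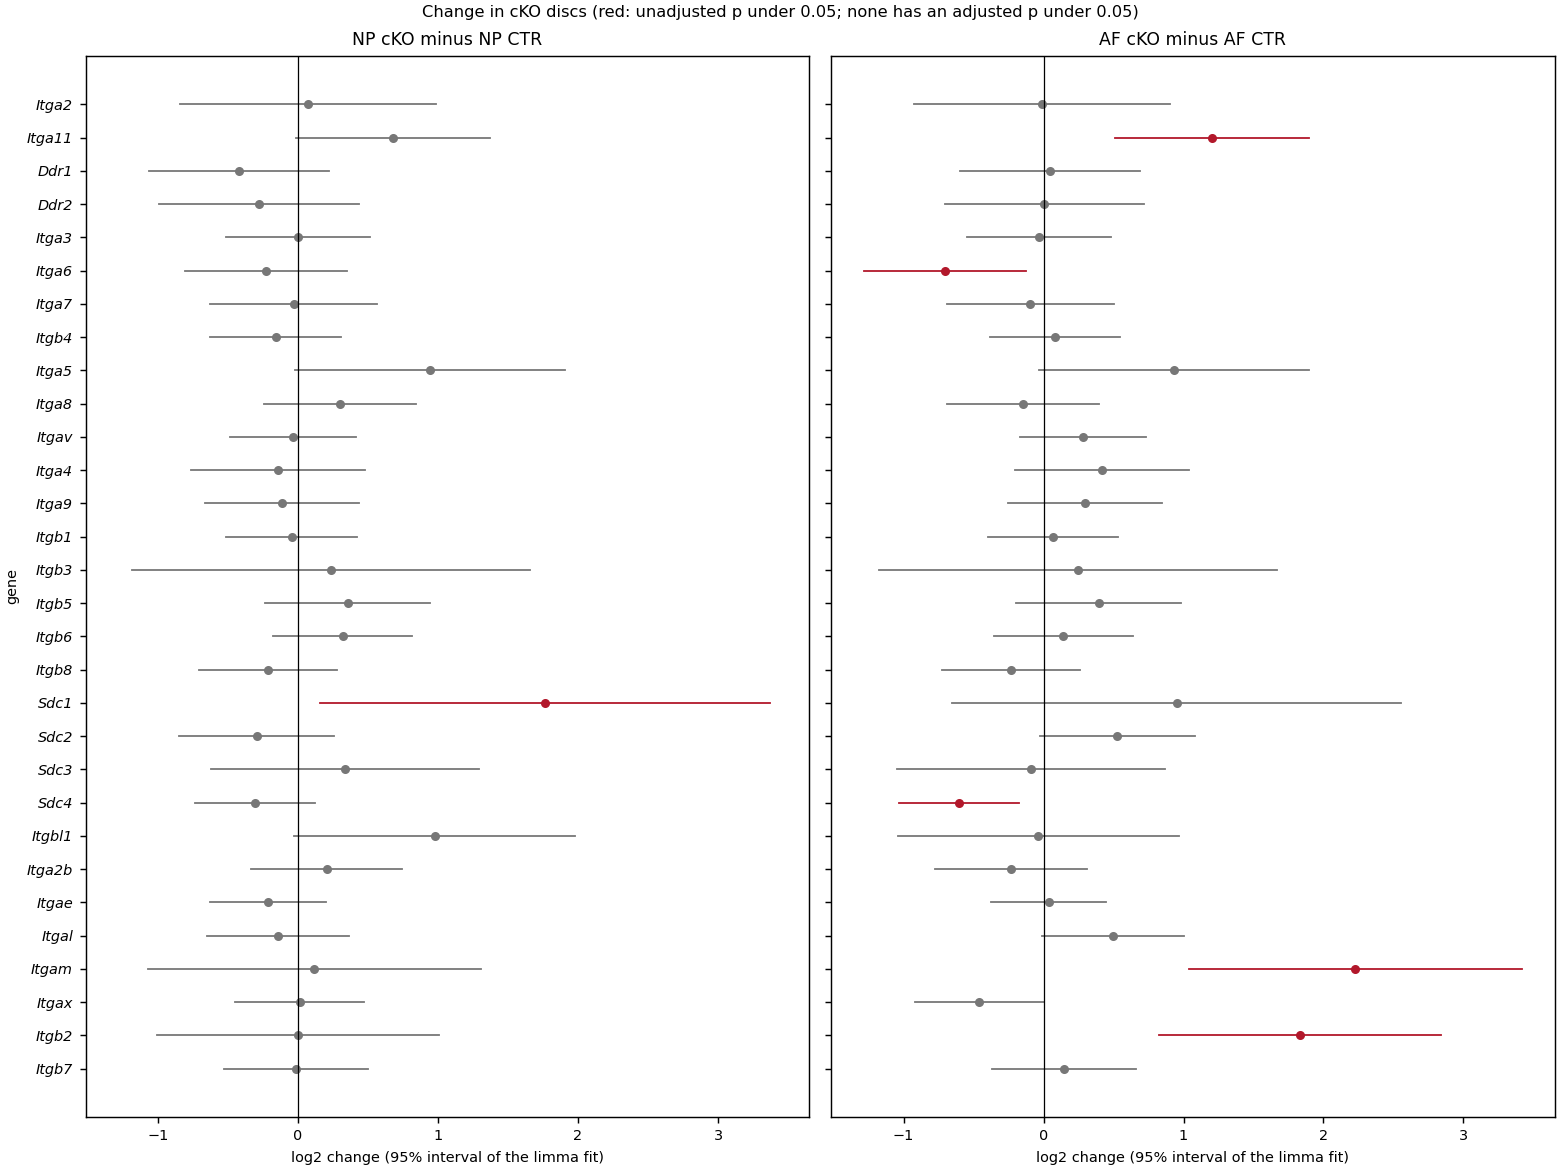
Log2 change of cKO minus CTR for each of the 30 genes, with NP and AF side by side and the 95% interval of the limma fit (n = 4 arrays per group). Red marks an unadjusted p under 0.05, and no gene has an adjusted p under 0.05. The largest change is that of Itgam in AF, at 2.23.

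In the annulus, AF cKO against AF CTR, again none of the 30 genes passed an adjusted p under 0.05 in limma, beside 0.0991% of all probe sets. At an unadjusted p under 0.05 there were 5 of 30, beside 10.6% of all probe sets: Itgam, Itgb2 and Itga11 with positive changes and Sdc4 and Itga6 with negative ones. Changes were positive for 19 genes and negative for 11, beside 46.4% positive over all probe sets. The cKO and CTR arrays did not overlap in 3 genes, Itga11, Sdc4 and Itgax, beside 4.33% of all probe sets. The labels name other thresholds, a fold of 1.75 or more together with an unadjusted p under 0.05. By these, 3 of 30 passed in AF (Itgam, Itgb2 and Itga11), beside 3.49% of all probe sets, 1 of 30 in NP (Sdc1), beside 1.18%, and 3 of 30 for the difference between the tissues in the change, beside 4.4%.

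Itga11 had 7.43, 8.74, 8.88 and 7.52 in AF cKO and 7.06, 7.15, 6.34 and 7.19 in AF CTR. All cKO arrays lay above all CTR arrays, with cKO replicates 2 and 3 well above and replicates 1 and 4 close to the highest controls. The log2 change was 1.20 (SE 0.33, adjusted p = 0.197). In both tissues the sign was positive and the arrays did not overlap, at 0.68 in NP and 1.20 in AF. Its means stayed below the 95% line of the negative controls in each group.

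Sdc4 had 15.21, 15.29, 15.06 and 15.15 in AF cKO and 15.68, 16.27, 15.39 and 15.79 in AF CTR. Every cKO array lay below every control, within a narrow range, and the change was -0.61 (SE 0.20, adjusted p = 0.310). Cartilage markers, many of them Sox9 targets, averaged 11.57, 11.37, 12.13 and 10.99 in AF cKO and 14.67, 13.62, 12.02 and 12.75 in AF CTR, and their link to Sdc4 was not tested. The laminin receptor subunit Itga6 had 9.87, 9.95, 9.68 and 9.51 in AF cKO and 9.83, 10.93, 10.52 and 10.56 in AF CTR. CTR replicate 1 lay among the cKO arrays and the other 3 controls lay above them, and the change was -0.70 (SE 0.28, adjusted p = 0.378).

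The same cKO mouse stood out in both tissues for part of the list. Replicate 2 had the highest cKO value in both NP and AF for 7 of the 30 genes, Ddr1, Itga6, Itgb4, Itga5, Itgav, Itgb5 and Sdc1, beside 7.19% of all probe sets. Itga5 had 10.39, 11.16, 10.15 and 9.94 in AF cKO and 9.25, 10.29, 9.37 and 9.02 in AF CTR, and Sdc1 had 12.26, 13.98, 12.83 and 11.71 in AF cKO and 11.71, 12.46, 12.07 and 10.74 in AF CTR. In both genes cKO replicate 2 was the highest array of the annulus, and the other arrays of the 2 groups overlapped. The mean of smooth muscle and pericyte markers was also highest in that mouse. For replicates 1 to 4 it was 7.78, 8.45, 7.45 and 7.79 in NP cKO and 8.61, 9.37, 8.33 and 8.29 in AF cKO. Within NP cKO the listed markers were mixed. Acta2 (16.66), Tagln (14.92), Cspg4 (11.88) and Des (4.54) were highest in replicate 2, while Cnn1 (4.79), Rgs5 (5.39) and Notch3 (5.45) were lowest there. Myh11, Pdgfrb and Mcam were neither. Skeletal muscle markers were 6.78, 9.93, 6.41 and 9.29 in AF cKO and 6.34, 6.58, 7.11 and 6.33 in AF CTR. The part of these cells in the values was not tested.

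**Figure D4:**
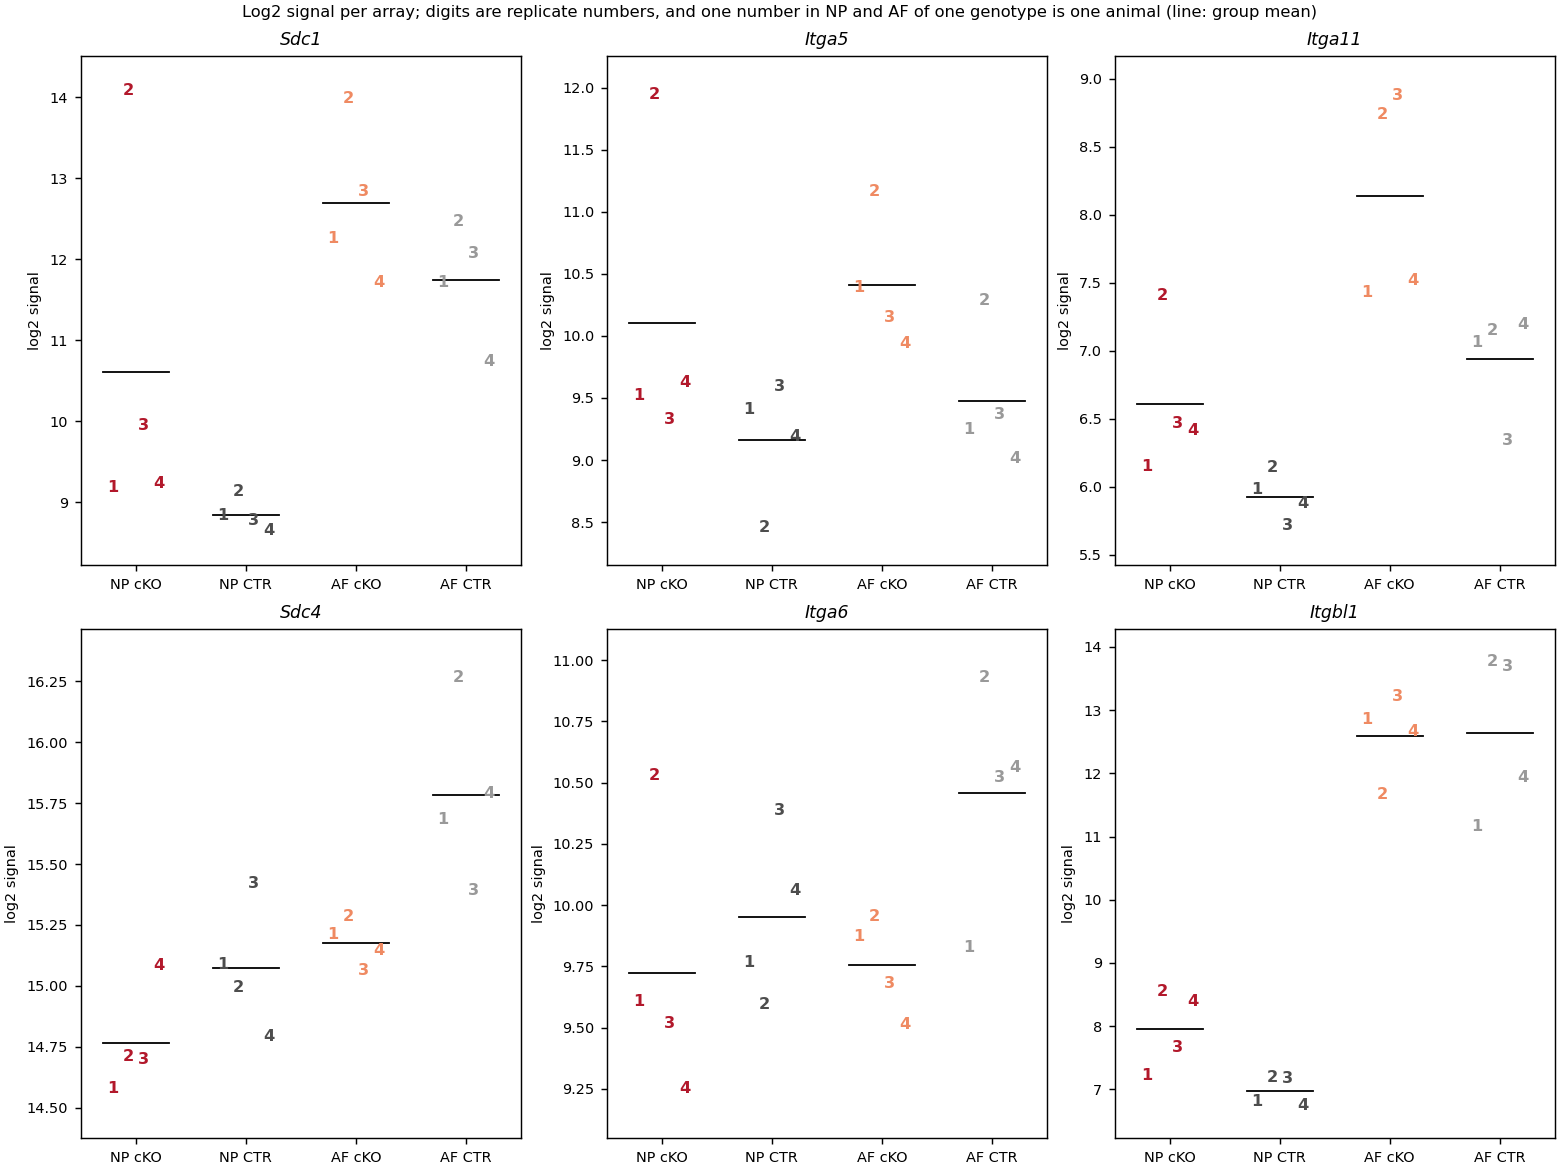
Log2 signal of Sdc1, Itga5, Itga11, Sdc4, Itga6 and Itgbl1 in the 4 groups, with cKO left of CTR within each tissue, the replicate number as the symbol and the group mean as a line. Sdc1 and Itga5 in NP cKO show 1 array, replicate 2 at 14.08 and 11.95, above the other 3.

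The remaining matrix receptors of the annulus were given by their means. Ddr2 averaged 14.89 ± 0.32 in AF cKO and 14.89 ± 0.62 in AF CTR, Itgb1 averaged 15.30 ± 0.23 and 15.23 ± 0.43, and Itgav averaged 13.65 ± 0.31 and 13.37 ± 0.20. The 95% interval of the change ran from -0.71 to 0.72 for Ddr2, from -0.40 to 0.54 for Itgb1 and from -0.17 to 0.73 for Itgav, and the groups overlapped in all 3. Itgbl1, the most tissue-restricted gene of the list between control discs, had 12.85, 11.66, 13.21 and 12.67 in AF cKO and 11.16, 13.77, 13.69 and 11.93 in AF CTR, with a change of -0.04 and an interval from -1.04 to 0.97. Sdc3 averaged 13.27 ± 0.45 in AF cKO and 13.36 ± 1.25 in AF CTR, and Sdc2 averaged 10.25 ± 0.42 and 9.73 ± 0.48.

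Itgb5 averaged 12.11 ± 0.35 in AF cKO and 11.71 ± 0.28 in AF CTR. Itgb3 had 7.44, 7.67, 11.08 and 6.56 in AF cKO and 9.52, 7.43, 6.87 and 7.94 in AF CTR, with 1 high array in each group, cKO replicate 3 and CTR replicate 1. Osteoclast markers were 7.84, 7.65, 10.12 and 6.71 in AF cKO and 9.24, 8.04, 6.32 and 7.67 in AF CTR, highest in the same 2 arrays. Itga2, with 6.73, 6.35, 8.31 and 6.00 in AF cKO and 7.92, 6.03, 6.86 and 6.65 in AF CTR, was also highest in these 2 arrays. The match was not particular to osteoclasts. Neutrophil, macrophage, erythroid, endothelial, osteoblast and cartilage marker means were highest in the same 2 arrays of their groups. Platelet markers were 6.31, 5.88, 7.42 and 5.99 in AF cKO and 6.12, 5.80, 6.05 and 6.34 in AF CTR. The part of any of these cells in Itgb3 and Itga2 was not tested. Itga4 and Itga9 averaged 7.85 ± 0.68 and 7.00 ± 0.50 in AF cKO and 7.43 ± 0.44 and 6.71 ± 0.45 in AF CTR. Ddr1, Itga2, Itga3, Itga7, Itga8, Itgb4, Itgb6 and Itgb8 had AF changes between -0.23 and 0.14. Each change was smaller in size than its SE, and the groups overlapped. In AF cKO, Ddr1 averaged 8.23 ± 0.23, Itga3 7.27 ± 0.29, Itga7 7.44 ± 0.37, Itga8 5.67 ± 0.40, Itgb4 6.20 ± 0.17, Itgb6 7.11 ± 0.13 and Itgb8 6.08 ± 0.49, and their AF CTR means are those given above.

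The difference between the NP and AF changes was tested as an interaction. No gene of the list and no probe set of the 22206 passed an adjusted p under 0.05 in limma, which is 0% of all probe sets. Of the 30 genes, 3 had an unadjusted p under 0.05, beside 6.74% of all probe sets: Itgb2, Itgam and Sdc2, each with a negative value of the NP change minus the AF change. Sdc2 had 7.82, 8.53, 8.49 and 8.81 in NP cKO and 8.52, 8.86, 8.83 and 8.62 in NP CTR, and 9.92, 9.97, 10.83 and 10.31 in AF cKO and 9.73, 10.39, 9.505 and 9.28 in AF CTR. Within each tissue these arrays overlapped, and the interaction was -0.82 (SE 0.37, adjusted p = 0.732).

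The leukocyte subunits gave the largest genotype differences of the list. Itgam and Itgb2 together form the receptor Mac-1 (CD11b/CD18) of neutrophils and macrophages. Itgam had 9.30, 9.41, 10.00 and 7.37 in AF cKO and 8.81, 6.06, 5.72 and 6.56 in AF CTR, and Itgb2 had 7.74, 7.69, 7.91 and 5.79 in AF cKO and 7.13, 4.80, 4.72 and 5.16 in AF CTR. In both genes cKO replicates 1, 2 and 3 were high, cKO replicate 4 was lower, and CTR replicate 1 stood above the other controls and above cKO replicate 4. The change of Itgam was 2.23 (SE 0.57, adjusted p = 0.171) and that of Itgb2 was 1.83 (SE 0.48, adjusted p = 0.175).

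Whether these changes passed turned on single arrays. Both were called without AF CTR replicate 1, at 2.90 for Itgam (adjusted p = 0.00659) and 2.39 for Itgb2 (adjusted p = 0.00924). Both were also called without AF cKO replicate 4, at 2.78 and 2.33 (adjusted p = 0.0244 for each). Neutrophil markers followed the same arrays, with means of 10.74, 10.63, 11.93 and 8.66 in AF cKO and 10.41, 7.35, 6.24 and 6.85 in AF CTR. All 15 measured neutrophil markers had a positive AF change, with a median of 2.66, beside 46.4% positive over all probe sets. Of them, 13 had an unadjusted p under 0.05, beside 4.94% of all probe sets that were higher at that p, but none passed the adjusted test. Macrophage markers averaged 7.52, 7.57, 8.14 and 6.72 in AF cKO and 7.97, 6.54, 6.28 and 6.38 in AF CTR, and erythroid markers averaged 8.16, 7.89, 9.07 and 7.04 in AF cKO and 7.66, 6.63, 6.66 and 7.22 in AF CTR. The part of blood and marrow cells in Itgam and Itgb2 was not tested.

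In the core the same subunits stayed near background. Itgam had 6.61, 5.94, 5.31 and 5.72 in NP cKO and 5.46, 6.40, 5.69 and 5.56 in NP CTR, and Itgb2 had 5.24, 5.51, 4.56 and 4.54 in NP cKO and 4.67, 5.36, 4.89 and 4.93 in NP CTR, with the groups overlapping. The interaction was -2.11 (SE 0.80, adjusted p = 0.732) for Itgam and -1.83 (SE 0.68, adjusted p = 0.732) for Itgb2, so a difference between the tissues in these changes did not pass.

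**Figure D5:**
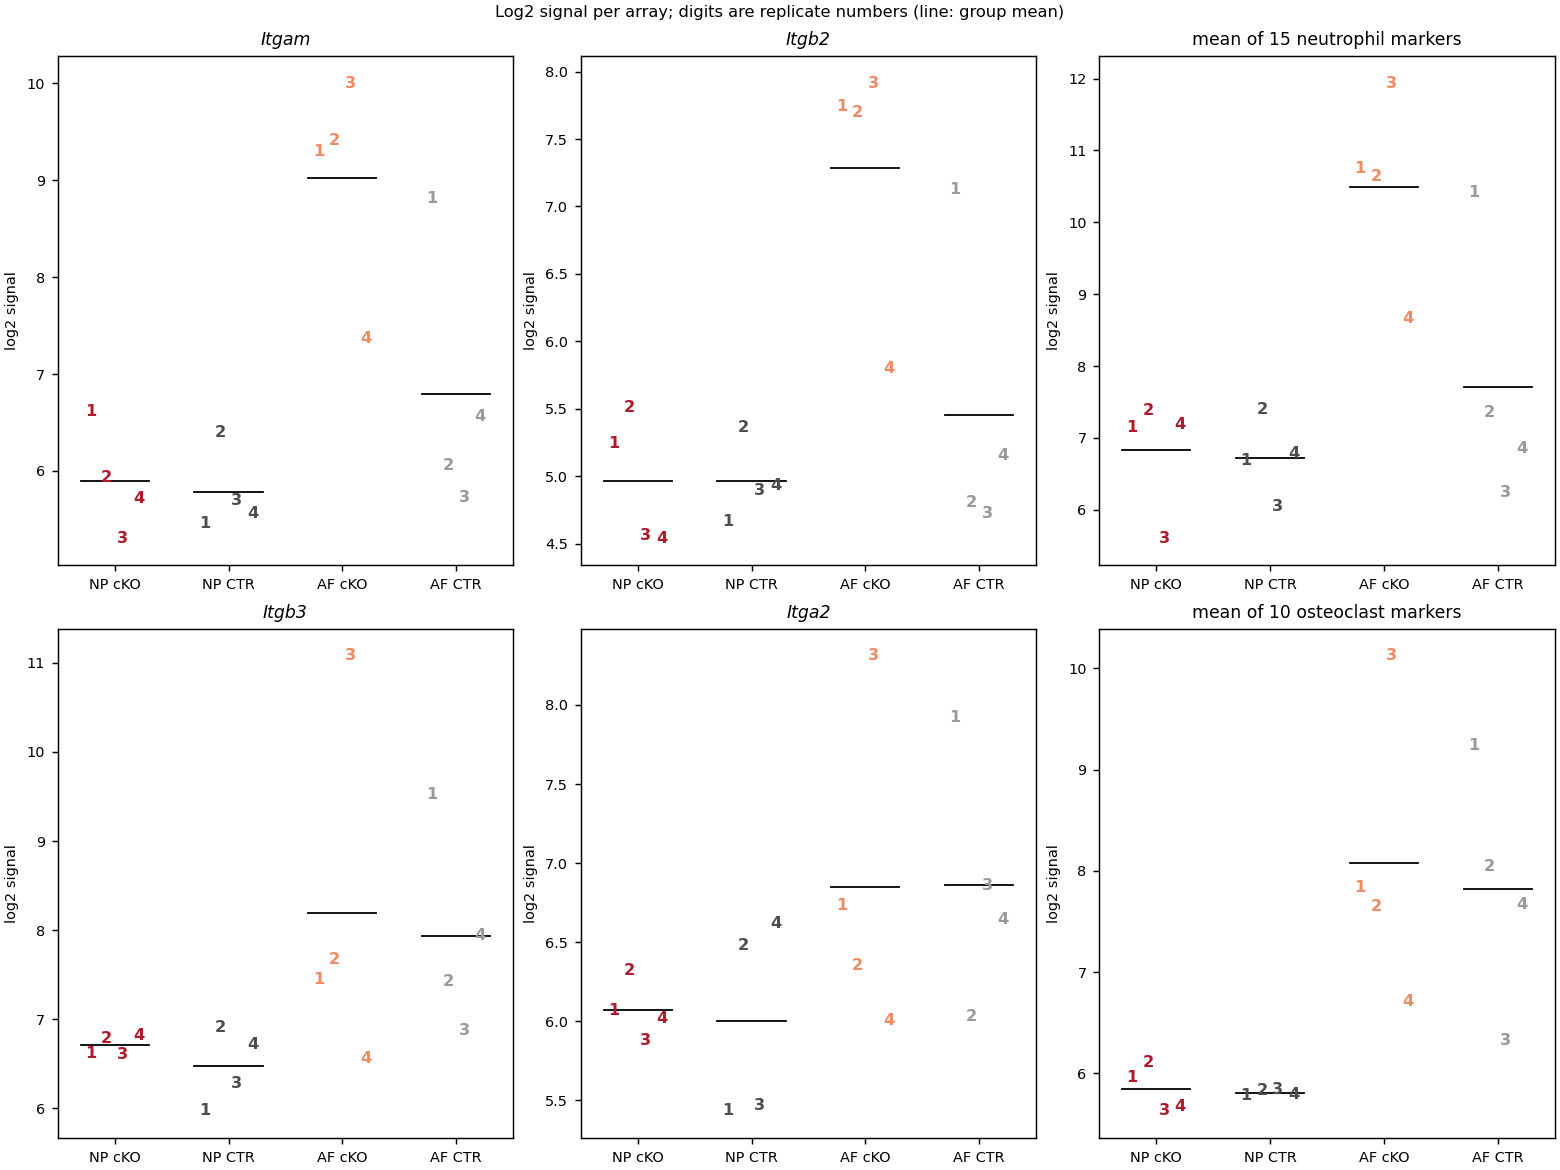
Log2 signal of Itgam, Itgb2, Itgb3 and Itga2 beside the mean signal of 15 neutrophil and 10 osteoclast markers in each array, with cKO left of CTR within each tissue, the replicate number as the symbol and the group mean as a line. The arrays with high Itgam and Itgb2, AF cKO replicates 1 to 3 and AF CTR replicate 1, are also those with a neutrophil mean above 10.

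Itgal and Itgax pair with Itgb2 on lymphocytes and on dendritic cells and macrophages. Itgax had 4.47, 4.12, 4.49 and 4.18 in AF cKO and 5.28, 4.70, 4.55 and 4.56 in AF CTR, with all cKO arrays below all controls and a change of -0.46 (SE 0.22, adjusted p = 0.470). In NP it had 5.17, 5.56, 5.23 and 5.23 in NP cKO and 4.85, 5.25, 5.26 and 5.79 in NP CTR. Itgal had 6.28, 5.78, 6.22 and 5.69 in AF cKO and 5.19, 5.44, 5.24 and 6.14 in AF CTR, and 5.29, 4.73, 5.27 and 5.19 in NP cKO and 5.74, 5.13, 4.98 and 5.21 in NP CTR. The mean of each lay below the median of the negative controls in all 4 groups, and their changes are differences within background.

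Itgae and Itgb7, which together hold T cells in epithelia, differed between the control tissues in opposite directions. Itgae had 6.40, 6.17, 6.39 and 6.62 in NP CTR and 5.44, 5.38, 5.52 and 5.49 in AF CTR, without overlap, and a log2 difference of 0.94 (SE 0.20, adjusted p = 0.00226). Its means lay below the median of the negative controls in both tissues. Itgb7 had 7.86, 8.39, 7.94 and 8.25 in NP CTR and 9.49, 8.43, 8.50 and 8.94 in AF CTR, also without overlap. Its log2 difference was -0.73 (SE 0.24, adjusted p = 0.0415), with adjusted p = 0.113 when the animal was a fixed block. It also lost its call without any 1 of NP CTR replicates 1, 3 and 4 and AF CTR replicates 1 and 4, where adjusted p reached 0.152, and with median centring (adjusted p = 0.0747) or a second quantile normalization (adjusted p = 0.0825). In cKO, Itgae averaged 6.18 ± 0.34 in NP and 5.49 ± 0.26 in AF, and Itgb7 averaged 8.09 ± 0.30 in NP and 8.99 ± 0.29 in AF. The platelet subunit Itga2b averaged 8.95 ± 0.12 in NP cKO and 8.74 ± 0.41 in NP CTR, and 8.80 ± 0.38 in AF cKO and 9.03 ± 0.49 in AF CTR.

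The genes around the receptors were read in 4 lists. Of 38 measured integrin ligands, 21 were lower and 3 were higher in NP CTR than in AF CTR, and the median difference was -1.77. Over all probe sets 10.1% were lower and 9.96% higher, so the 3 higher ligands are near that share. The smallest p belonged to the bone sialoprotein Ibsp (-9.94), thrombospondin 1 (-10.75) and the collagen I chain Col1a2 (-9.89), and the collagen I, III and VI chains, Col2a1, Tnc, Postn, Tgfbi and Tgfb1 were also lower. In NP CTR, Ibsp averaged 6.93, Thbs1 4.51 and Col1a2 8.21, all under the 95% line of the negative controls, so these differences compare AF with a floor. The same holds for Col1a1, Col3a1, Col2a1, Tnc, Tgfbi and Tgfb1, with NP CTR means of 9.12, 5.50, 8.07, 6.24, 8.21 and 8.69. Postn stayed under the line in both tissues, at 6.01 in NP CTR and 8.10 in AF CTR, while the collagen VI chains lay above it. The 3 higher ligands were the laminin chain Lamb3, nephronectin (Npnt) and Ccn3.

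Of 37 adaptors that join integrins to actin and to signalling, 9 were higher and 4 were lower in NP CTR than in AF CTR, with a median of 0.19. The share over all probe sets was 9.96% higher and 10.1% lower, which is near that of the lower adaptors. The higher ones were Tln2, Fermt1, Pxn, Lims2, Actn4, Kank1, Kank2, Cd151 and Cav1, and the lower ones were Fermt3, Lims1, Parvb and Flna. In NP CTR and AF CTR, Fermt1 averaged 6.25 and 5.43, Fermt3 4.30 and 5.65, and Parvb 4.75 and 5.57. These means lay below the median of the negative controls in both tissues, so these differences lie within background. Cav1, the coat protein of caveolae, differed by 1.41 (SE 0.23, adjusted p = 0.000209), and Fermt3 is the kindlin of blood cells. Of 17 other matrix receptors, 4 were higher (Gpc3, Gpc4, Mrc2 and Bcam) and 5 lower (Cspg4, Hmmr, Lyve1, Tgfbr3 and Lair1), beside 20.1% of all probe sets called in either direction. Of 18 syndecan partners and heparan sulfate enzymes, 2 were higher (Ext1 and Sulf2) and 5 lower (Cask, Extl3, Hs3st1, Sulf1 and Hpse), with Extl3 at -2.83 (SE 0.24, adjusted p = 2.5e-07) and Sulf1, which trims sulfate from the chains, at -5.29 (SE 0.66, adjusted p = 1.53e-05), again beside 20.1%. Extl3 averaged 7.64 and Sulf1 5.80 in NP CTR, under the 95% line of the negative controls, so both are differences from a floor. Lyve1, Lair1 and Hpse averaged below the median of the negative controls in both control tissues, and their differences lie within background. Hmmr, Cask and Hs3st1 stayed under the 95% line in both.

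No gene of these 4 lists passed in the genotype comparisons or in the interaction. In NP the smallest p among the ligands was that of Tgfb1, at 1.75 (SE 0.46, adjusted p = 0.348), and among the other matrix receptors that of the glypican Gpc4, at -0.75 (unadjusted p = 0.00961). In AF it was that of Col2a1, the collagen of cartilage, at -2.72 (SE 0.59, adjusted p = 0.103), followed among the ligands by Col5a1 (1.30) and Col3a1 (2.42). The hyaluronan receptor Cd44 had an AF change of 1.65 (SE 0.49, adjusted p = 0.236) and the actin crosslinker Flna one of 0.70 (SE 0.22, adjusted p = 0.259). Of the 37 adaptors, 32 had a positive AF change, with a median of 0.31, and 6 of them had an unadjusted p under 0.05. Over all probe sets 46.4% had a positive AF change, the median was -0.03, and 4.94% were higher at that p.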

How the data were processed

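RNA from 16 samples of mouse disc tissue, 4 arrays in each of 4 groups, was measured on 1-colour Affymetrix arrays. The deposited values are log2 signals per probe set. The authors normalized them with sst-RMA, an RMA variant with signal space transformation, per the labels. Transcriptome Analysis Console is named in the submitters' processing notes (version not given in the sources used here). Probe sets numbered 28846. The 6640 control probe sets were dropped, and the remaining 22206 entered the test without further normalization. Groups were taken from the labels. The limma package 3.58.1 in R 4.3.3 was fitted to 4 group means over all arrays with moderated spread. The contrasts were cKO minus CTR in NP and in AF, the difference of these, and NP CTR minus AF CTR. P-values were adjusted by the Benjamini-Hochberg method across the 22206 probe sets, and a probe set was called under 0.05. The fit was tested on simulated data with independent normal noise, which held no shared effect of a mouse and no outlying arrays. The number of arrays, not a read depth, limits the precision, and p-values measure the spread between these samples of 4 mice per genotype.

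The listed genes and the pathway and marker lists were chosen with earlier results of these data known. Values in every array are given for genes of the receptor list called in any contrast and for the 5 with the smallest p in each contrast, and each pathway list is given by its called genes and up to 3 with the smallest p. NP and AF arrays of 1 genotype with the same number in the sample title come from 1 mouse. After the group means were taken off, r between the 2 arrays of a mouse lay between -0.29 and 0.35, and in 3 of 8 mice it was above 0.1. A block for the mouse was run as an alternative. Further alternatives changed the scaling (median centring or a second quantile normalization), the probe sets tested (dim ones removed, or 1 per gene), the moderation (intensity trend, array weights), the thresholds, or the arrays in the fit, each of which was also left out in turn. Detection calls were not used here.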

Additional observations from a re-analysis of the deposited data

Results flagged for a closer look

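In 7 of 120 groups of 4 arrays, 1 array lay far from the other 3, and chance flags about 1 in 20 such groups. In NP cKO, replicate 2 was high for Sdc1 (14.08, with the others at 9.18 to 9.94), for Itga5 (11.95, others 9.33 to 9.62) and for Itgax (5.56, others 5.17 to 5.23), and low for Itgb7 (7.64, others 8.22 to 8.27). Replicate 4 of NP cKO was low for Itgb1 (15.42, others 15.85 to 15.90). In the annulus, AF cKO replicate 4 was low for Itgb2 (5.79, others 7.69 to 7.91), and AF CTR replicate 3 was low for Itga11 (6.34, others 7.06 to 7.19). No cause of these distances was tested.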

How the results depend on the processing

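The count of receptor genes called was 0 in NP, 0 in AF, 0 for the interaction and 12 between the control tissues. With the thresholds of the labels these counts were 1 in NP, 3 in AF, 3 for the interaction and 10 between the control tissues, the last beside 16.4% of all probe sets. Leaving out single arrays gave 0 in NP and for the interaction, 0 to 2 in AF and 8 to 13 between control tissues. Pairs of arrays chosen after seeing the data were also left out. Without both AF cKO replicate 3 and AF CTR replicate 1 there were 2 in AF, and without AF cKO replicates 2 and 4 there were 0. Without NP cKO replicates 3 and 4 there were 0 in NP, and without AF CTR replicates 1 and 2 there were 4 between control tissues. With the replicate number as a block the counts were 0 in NP, AF and the interaction and 8 between control tissues, where the block is the animal. Numbers pair nothing across genotypes, where same-numbered deviations had r from -0.27 to 0.21. Over all probe sets, calls at an adjusted p under 0.05 ran from 10 to 30 in NP (27 with all arrays), from 4 to 142 in AF (22), from 0 to 3 for the interaction (0) and from 2533 to 5062 between control tissues (4462). Of 542 alternative values of single genes in 27 comparisons, 480 kept their direction and side of the threshold, 49 lost their call, 13 gained one and none changed sign while called. Where a call moved, the cause was not tested. Signals near the negative controls limit 19 of the 30 genes.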
